A study of Mus musculus with 42 samples.

Results

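This account concerns 8 mouse genes of the urea cycle and polyamine metabolism, Cps1, Ass1, Asl, Arg1, Arg2, Oat, Odc1 and Sat1, in RNA-seq libraries of sorted colon cells and of colon organoids. They were taken by name from 12 tables that together list 19232 genes, and 12190 genes have a row in all tables. Of the 8 members, 6 have a row in every table. Arg1 has none in the table of organoids given IL-17A for 72 h, and Cps1 has none in the proximal table of stromal cells lacking Smad4. The group was chosen by the values of Cps1 in goblet cells of mice with an Alk3 knockout in the stroma, where it was low, so the values of all 8 genes in that contrast are given as a description, with no test. The same holds for every value of Cps1 that rests on the goblet cell controls.

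All sorted cells came from young adult mice carrying the tamoxifen-inducible Gli1CreERT2 allele, whose recombinase is active in Gli1-expressing stromal cells. The controls (GWT) carry this allele and received tamoxifen too, 100 µl per day of a 20 mg/ml solution, and all mice were taken at day 30. GS4 mice also carry Smad4-loxp and lose Smad4, the shared signal carrier of the BMP and TGF-β pathways, in these cells. GA3 mice carry Alk3-loxp and lose Alk3 (Bmpr1a), a BMP receptor. Goblet cells were sorted by the Muc2-mCherry reporter (GWTM2, GS4M2, GA3M2) and stromal cells by the Gli1CreERT2-tdTomato reporter (GWTT, GS4T, GA3T), each from proximal and distal colon with 2 libraries a group, 12 goblet and 12 stromal libraries in all. The goblet cells are therefore not the cells this driver targets, and no label tells if 1 mouse or several went into a library. Another 18 libraries come from organoids of wild-type distal colon kept in ENR medium with Wnt3a and CHIR, left untreated (Control) or given 10 nM IL-1α and IL-1β (IL1) or IL-17A for 12 or 72 h, with 3 libraries a group.

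Libraries held 14222902 to 23686940 reads on listed genes. Smad4 in the stromal GS4T libraries was at 47% (proximal) and 53.1% (distal) of control, and Bmpr1a in GA3T at 65.9% and 62%, so transcripts of the targeted genes remained. In goblet cells Bmpr1a was at 71% and 80.5% of control in GA3M2 and at 79.1% and 80% in GS4M2. Smad4 there was at 140% and 136% in GA3M2 and at 101% and 93.6% in GS4M2. The cause of these goblet cell values was not tested. Each control library stands in both the GS4 and the GA3 table, or in both cytokine tables, of its kind, and the paired comparisons therefore share their controls. Of the 42 labelled libraries, 40 are distinct. Control-12h_2 and Control-72h_1 hold equal reads in 99.98% of 12851 genes, as do Control-12h_4 and Control-72h_4 in 99.98% of 12877 genes, so the 12 h and 72 h comparisons also share 2 of 3 controls. Libraries were of mixed sex by the X-inactivation transcript Xist. Among goblet libraries only GWTM2-Proximal_1 and GWTM2-Distal_1 were high in Xist, at 20430 or more normalized counts against 14.7 or fewer in the others.

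In the urea cycle, Cps1 (carbamoyl phosphate synthetase) fixes ammonia in mitochondria, Ass1 and Asl (argininosuccinate synthase and lyase) make arginine, and the arginases Arg1 (cytosolic) and Arg2 (mitochondrial) split arginine into urea and ornithine. Ornithine is also made or used by Oat (ornithine aminotransferase), and it is the substrate of Odc1 (ornithine decarboxylase), the first and rate-limiting enzyme of polyamine synthesis. Sat1 (spermidine/spermine acetyltransferase) starts the breakdown and export of polyamines, small cations needed by dividing cells. In gut epithelium the cycle runs only in part, and arginase is a well-known product of macrophages and other myeloid cells, where it competes with nitric oxide synthase for arginine.

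The members were located in the mm10 build. Cps1 is at chr1:67123026-67231259 (plus strand), Ass1 at chr2:31470207-31520672 (plus), Asl at chr5:130011258-130029247 (minus) and Oat at chr7:132557478-132576398 (minus). Arg1 is at chr10:24915221-24927484 (minus) and Arg2 at chr12:79130777-79156301 (plus). Odc1 is at chr12:17544794-17551505 (plus) and Sat1 at chrX:155213132-155216449 (minus). Levels were taken over the exons of each gene.

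A RefSeq promoter was at hand for 4 of the 8 members, Ass1, Oat, Odc1 and Sat1. The 250 bases before the start sites of Odc1 and Sat1, enzymes of polyamine synthesis and breakdown, are shown. Of the 4 members with a promoter, these 2 differed most in organoids given IL1 for 72 h. Odc1 was called there and Sat1 was just under the fold limit. Cps1, also called there, had no promoter at hand. The sequences are read from GRCm38.p6, 5′ to 3′ on the gene's strand, at chr12:17544623-17544872 (plus) and chrX:155216450-155216699 (minus), with capitals marking GC boxes (GGGCGG or its complement).
Odc1: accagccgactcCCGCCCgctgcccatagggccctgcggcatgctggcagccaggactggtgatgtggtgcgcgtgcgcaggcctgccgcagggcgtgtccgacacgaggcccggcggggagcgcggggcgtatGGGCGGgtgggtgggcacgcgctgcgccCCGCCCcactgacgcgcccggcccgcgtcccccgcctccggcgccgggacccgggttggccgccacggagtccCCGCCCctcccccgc
Sat1: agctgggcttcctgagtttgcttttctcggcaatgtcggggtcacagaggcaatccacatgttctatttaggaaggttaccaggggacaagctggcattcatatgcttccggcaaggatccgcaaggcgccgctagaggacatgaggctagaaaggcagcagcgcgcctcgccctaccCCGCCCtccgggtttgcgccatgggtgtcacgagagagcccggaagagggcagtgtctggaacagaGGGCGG

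Over the 300 bases from 250 before to 50 after the start, Odc1 held 4 GC boxes and Sat1 held 2, and at least 1 such box was found in 35.7% of 32851 promoters. Ass1 held 1 GC box and, 36 bases before its start, 1 E-box (CACGTG, in 7.15% of promoters). Oat held 2 GC boxes and 2 CCAAT boxes (CCAAT, in 37.4%). No match was found in the 4 promoters to the TATA box (TATAAA, in 13.6%), to the κB motif (in 4.79%) or to the cAMP response element (TGACGTCA, in 1.79%), all searched on both strands. A match is a description of these letters and says nothing of binding.

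Per length of transcript, the polyamine genes and Oat were far above the urea cycle genes in every control group. In proximal GWTM2 goblet cells, Oat stood at 133 ± 8.63 RPKM (SD, n = 2), Sat1 at 90.4 ± 11.5 and Odc1 at 83.4 ± 6.82. Ass1 followed at 9.29 ± 1.84, Asl at 5.85 ± 0.511, and Arg1, Arg2 and Cps1 at 2.44 ± 0.0453, 1.88 ± 1.54 and 1.68 ± 0.322 RPKM. Sat1 and Odc1 did not differ beyond their spread there, nor did Arg2 from Arg1 or Cps1. The order in distal goblet cells differed at the low end. Cps1 was at 3.38 ± 1.29 RPKM there, while Arg1 and Arg2 were at 0.523 ± 0.303 and 0.528 ± 0.375. In organoid controls at 72 h Odc1 led with 93.3 ± 11.9 RPKM, before Sat1 (65.7 ± 1.54) and Oat (54.5 ± 2.43), and Arg1 was near the floor at 0.124 ± 0.0531 (n = 3). In control stromal cells Cps1 was nearly undetected proximally, at 0.0222 ± 0.0315 RPKM, and stood at 0.424 ± 0.038 distally.

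Control goblet cells were set against control stromal cells, 4 libraries each, by limma on log2(CPM + 0.1). A gene was called where its adjusted p was under 0.05 and its log2 difference at least 1 in size, and 44.3% of the 12812 genes tested were called. Of the 7 members tested here, 3 were called, all higher in goblet cells. The difference was 1.76 for Ass1 (30.9 ± 10.9 against 8.89 ± 2.58 CPM, SE 0.272, adjusted p = 0.000545), 1.36 for Asl (27.8 ± 2.75 against 10.9 ± 2.07, SE 0.153, adjusted p = 8.92e-05) and 2.41 for Arg2 (1.72 ± 1.72 against 0.212 ± 0.213, SE 0.793, adjusted p = 0.0245), whose libraries overlap. Odc1 was higher by less than the fold limit (0.76, adjusted p = 0.000944) and Sat1 lower by less (-0.62, adjusted p = 0.013). Cps1, described only, was at 14.1 ± 6.92 CPM in goblet and 1.24 ± 1.3 in stromal cells. These are shares of the RNA of bulk samples, in which fewer cells of a type and less RNA per cell cannot be told apart.

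Along the colon no tested member was called by limma in either cell type. Between proximal and distal GWTM2 the share of genes called was 0.203% (2.96% by DESeq2), and between proximal and distal GWTT 2.35% (4.2% by DESeq2). In goblet cells Arg1 was at 5.35 and 5.50 CPM proximally and at 1.64 and 0.688 distally, a log2 difference of 2.24 (SE 0.469) with adjusted p = 0.167 by limma and 0.00709 by DESeq2. Both proximal libraries were above both distal ones. Oat was 0.75 higher proximally (313.7 ± 20.5 against 187.3 ± 22 CPM, limma adjusted p = 0.136) and Ass1 0.81 lower (22.4 ± 4.45 against 39.4 ± 6.92, adjusted p = 0.243), again without overlap. In stromal cells Cps1 was at 0 and 0.247 CPM proximally and at 2.21 and 2.50 distally, a difference of -3.72 (SE 0.876) called by DESeq2 (adjusted p = 0.00726) and not by limma (adjusted p = 0.0946). Goblet cell markers had lower mean log2(CPM + 0.1) proximally in the same libraries, 11 of 11 tested with a median difference of -2.26. The proximal libraries differed widely, however, with goblet marker sums of 85.94 to 6752 normalized counts against 2738 to 5516 distally. Macrophage markers were lower proximally too, 12 of 12 (median -1.4). Of the general epithelial markers 5 of 7 were lower (median -0.184), and their sums overlapped, at 202.3 to 6925 against 848.9 to 2512. Their part in the Cps1 values was not tested.

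In goblet cells of the Alk3 knockout, the contrast that chose the group, Cps1 was low in both segments. In proximal colon its normalized counts were 192 and 146 in the GWTM2 libraries against 2.01 and 4.61 in GA3M2, a log2(normalized count + 1) difference of -5.36. In distal colon they were 232 and 416 against 84.2 and 151, a difference of -1.45. All knockout libraries were below all controls of their segment. The share of genes called was 0.0899% proximally and 0% distally, and no call is given for Cps1, since the gene was chosen here. In distal colon limma called 0 of 13082 genes, 539 had an unadjusted p under 0.05 with at least that fold, DESeq2 called 240 and edgeR 0.

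The other members moved less, apart from the arginases. Arg1 was at 99.6 and 97 in proximal GWTM2 against 252 and 550 in GA3M2, and at 27.8 and 12 in distal GWTM2 against 301 and 336, so that it was higher in all 4 knockout libraries, by 1.91 and 4.04. Arg2 was at 76.8 and 20.5 against 103 and 203 proximally and 19.2 and 6.56 against 19.6 and 27.8 distally. Odc1 differed by -0.06 and 0.05, Ass1 by 0.34 and 0.03, Sat1 by 0.40 and 0.07, Asl by 0.44 and 0.62 and Oat by -0.45 and -0.28. The difference between segments was -3.90 for Cps1 and -2.13 for Arg1, given without a test, and the share of genes called for it was 0%.

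Muc2 and the summed goblet cell markers were lower in these libraries. Muc2, the mucin that marks the sorted cells, was at 179600 and 224200 in proximal GWTM2 against 18750 and 14040 in GA3M2, and at 41160 and 109500 against 16020 and 12290 in distal colon. The summed level of 12 goblet cell markers was 605300 to 645400 against 263000 to 321500 proximally and 645500 to 1137000 against 269900 to 466500 distally. Of these 12 markers, 8 were lower and 4 higher in each segment, with a median log2 difference of -0.26 proximally and -0.48 distally. The summed macrophage markers, 10 of 12 with a row, went from 863.9 to 1268 in proximal controls to 2333 to 2777 in GA3M2, with Lyz2, C1qb, C1qc and Spp1 at 0 in the controls. In distal colon, with 9 of 12 markers present, they were 976.8 to 2680 against 2224 to 2328. The summed neutrophil markers, 3 of 7 with a row, were 6.85 to 19.2 against 362.3 to 1574 proximally, with S100a8 and S100a9 at 0 in the controls, and 138.8 to 152.6 against 1256 to 2048 distally. Nearly all of the GA3M2 sum was Ly6g, at 944.3 ± 857 proximally and 1584 ± 539 distally (n = 2), while S100a8 and S100a9 were at 12.6 ± 3.5 and 11.5 ± 3.38 proximally. Ly6g was also at 2012 to 2259 in the 72 h organoid controls, which hold epithelium alone. Stromal markers, 7 of 9 with a row, summed to 272.7 to 304.3 in proximal controls against 247.6 to 637.4 in GA3M2. Of the 6 that passed the filter 5 were higher (median 4). With 3 of 9 present they were 238.1 to 369.3 against 162 to 169.3 distally. Colonocyte markers overlapped, at 59490 to 130200 against 31120 to 73950 proximally and 9938 to 51650 against 15260 to 28330 distally. The part of these shifts, and of the sex of the control libraries, in the values of Cps1 and Arg1 was not tested.

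**Figure D1:**
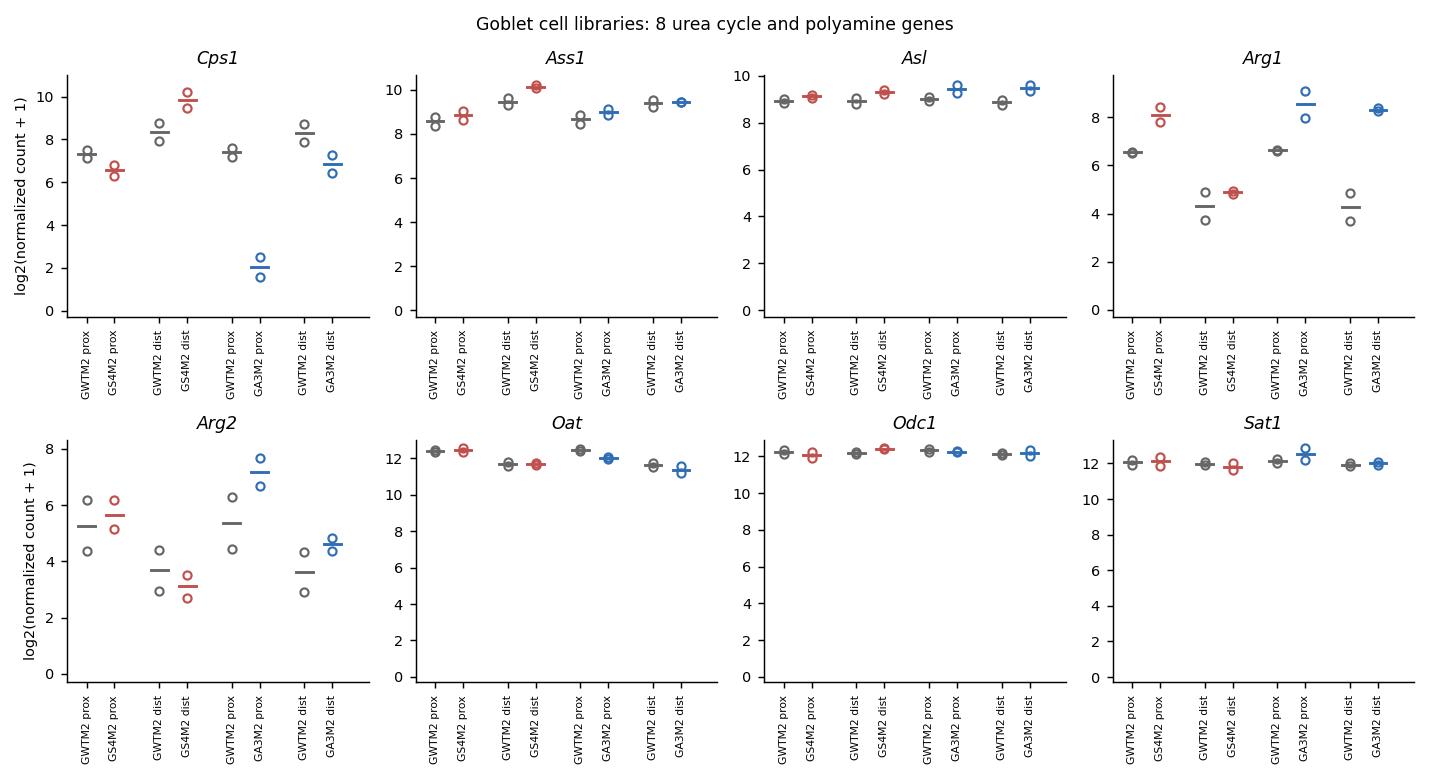
Levels of the 8 members in goblet cell libraries, as log2(normalized count + 1), by group and table. Open circles are libraries, 2 a group, and bars are group means, with GWTM2 in grey, GS4M2 in red and GA3M2 in blue. Cps1 is lowest in the proximal GA3M2 libraries (2.01 and 4.61 normalized counts) and highest in distal GS4M2 (709 and 1178), while Odc1 stays nearly level.

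In goblet cells of the Smad4 knockout, Cps1 went opposite ways in the 2 segments, described without a test since the controls are the same libraries. Proximally it was at 180 and 138 in GWTM2 against 76.7 and 112 in GS4M2, a difference of -0.76. Distally it was at 243 and 431 against 709 and 1178, a difference of 1.50. Every knockout library lay below both controls in proximal colon and above both in distal colon, and the difference between segments was -2.26.

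None of the other 7 members was called by limma in GS4M2, against 0.325% of genes proximally and 0% distally. Arg1 came nearest in proximal colon, at 93.6 and 91.8 in GWTM2 against 339 and 223 in GS4M2. The log2 difference of 1.56 (SE 0.247, 95% interval 0.96 to 2.16) had an adjusted p of 0.0783 by limma and was called by DESeq2 (adjusted p = 5.64e-05), which called 2.04% of genes. Other markers moved in the same libraries. Colonocyte markers summed to 55880 to 123200 in proximal GWTM2 and 21720 to 37520 in GS4M2, goblet cell markers to 568500 to 610500 and 724200 to 776500, and stromal markers, 2 of 9 with a row, to 253.7 to 279 and 97.75 to 128.2. Macrophage markers, 5 of 12 with a row, overlapped at 816 to 1190 and 1002 to 1074, and Ly6g, the 1 neutrophil marker with a row, was at 6.48 to 18 and 97.75 to 227. Their part in the Arg1 values was not tested. In distal colon Arg1 was at 29.1 and 12.5 against 27.5 and 29.4, and the groups overlapped. Ass1 was higher in both distal knockout libraries (784 and 624 against 1173 and 1067, difference 0.68, SE 0.159), with an adjusted p of 0.381. Odc1 differed by -0.17 (interval -0.50 to 0.16) proximally and by 0.23 (-0.05 to 0.51) distally. In distal GS4M2 limma called 0 of 13078 genes, with 353 at an unadjusted p under 0.05 and that fold, 148 by DESeq2 and 0 by edgeR. For the difference between segments it called 0% of genes (307 unadjusted, 0 by edgeR), no member among them.

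Across the 12 goblet libraries, the genes whose log2(CPM + 0.1) followed Cps1 most closely among 11905 were Mdfic (Pearson r 0.947), Fanci (0.938), Tubg2 (0.932), Crym (0.93) and Tjp1 (0.927). Gene models without a proper name were left out. Tubg2 and Crym were near the floor, at 0.11 to 1.69 and 0.441 to 2.19 CPM, and Mdfic ran only from 3.03 to 5.92. Among the members r was 0.557 for Ass1, 0.39 for Odc1, -0.189 for Oat, -0.221 for Asl, -0.616 for Sat1, -0.713 for Arg1 and -0.837 for Arg2. The goblet cell gene Clca1 had r 0.834 and Muc2 0.564. Of the colonocyte genes Car4 had 0.52 and Car1 -0.365, and of the general epithelial genes Cdx1 had 0.339 and Cdx2 -0.734. The 12 libraries share segments, genotypes and controls, so these values describe the libraries only.

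In stromal cells of the Smad4 knockout the arginases were the members that stood out. Arg1 was at 47.6 and 87.1 normalized counts in proximal GWTT against 1227 and 1165 in GS4T, and at 208 and 49.4 in distal GWTT against 3455 and 1128. All 4 knockout libraries were above all controls, and in distal colon the libraries of each group differed widely. Arg1 rose by 4.19 proximally (SE 0.31, limma adjusted p = 0.00523) and by 4.27 distally (SE 0.774, adjusted p = 0.0155). Arg2 was at 0 and 6.15 in proximal GWTT against 28.6 and 27.9 (3.45, SE 1.11, adjusted p = 0.0963). In distal colon it was at 6.85 and 0.968 against 96.5 and 58.7, and it rose by 4.28 (SE 0.822, adjusted p = 0.0182). Counts this low in the controls make the size of the Arg2 change imprecise, with a 95% interval of 2.26 to 6.3.

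Ass1 rose in distal stromal cells, from 136 and 149 to 366 and 257 (1.10, SE 0.242, adjusted p = 0.0268), and its proximal libraries overlapped (100 and 202 against 143 and 247). Asl, the next enzyme of the cycle, was at 148 and 165 against 282 and 258 proximally (0.79, adjusted p = 0.0521) and differed by 0.58 distally (adjusted p = 0.129). Oat and Odc1 were slightly lower in both segments, Oat by 0.21 and 0.28 and Odc1 by 0.23 and 0.20 on the log2 scale, with adjusted p of 0.134 or more. Cps1, measured only distally, was at 41.1 and 35.8 against 19.5 and 30.5 (-0.63, adjusted p = 0.371).

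Sat1 was lower after loss of Smad4. In proximal colon it was at 9374 and 6137 in GWTT against 3242 and 3492 in GS4T, and it fell by 1.17 on the log2 scale (SE 0.216, adjusted p = 0.0281). In distal colon it was at 4221 and 5466 against 2970 and 2721, a difference of -0.76 (SE 0.151, adjusted p = 0.0204) under the fold limit. All knockout libraries were below all controls of their segment. Sat1 is X-linked, and the highest library, GWTT-Proximal_1, had 7.24 normalized counts of Xist against 17060 to 27340 in the other 3 proximal libraries of the table. In the distal table all 4 libraries were high in Xist (17240 to 21060). Without GWTT-Proximal_1 the proximal difference was -0.87 (adjusted p = 0.0188), under the fold limit.

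Of the members tested, 2 of 7 were thus called proximally, where 9.61% of genes were, and 3 of 8 distally, where 14% were. Without GS4T-Proximal_1 neither proximal call was made, with Arg1 at 4.16 (adjusted p = 0.0659) and Sat1 at -1.12 (adjusted p = 0.155). The call of Sat1 was also lost without GS4T-Proximal_2 (-1.23, adjusted p = 0.13) and, as above, without GWTT-Proximal_1. Without GS4T-Distal_1 the 3 distal calls were lost (Arg1 3.46, adjusted p = 0.08; Arg2 3.93, 0.0843; Ass1 0.85, 0.0892), and Ass1 was also lost without either distal control library. For the difference between segments 0.189% of genes and no member were called.

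Markers of other cells moved with these results. The 12 macrophage markers, all with a row, summed to 3423 to 5530 in proximal GWTT against 21300 to 32720 in GS4T, and to 11060 to 13360 against 26790 to 45820 distally. The 7 neutrophil markers summed to 40.3 to 62.5 against 1178 to 1277 proximally, with Ly6g at 0 in the controls, and to 49.4 to 90.9 against 2908 to 3940 distally, with Cxcr2 at 0 in the controls. General epithelial markers were also higher, at 192 to 6587 against 15510 to 21280 proximally and 744 to 2207 against 8912 to 17900 distally. S100a8, a calprotectin subunit made by neutrophils, was at 3.10 and 10.3 against 164 and 276 proximally, and at 18.6 and 1.94 against 854 and 1029 distally. The 8 T and B cell markers, all with a row, were lower, at 26400 to 45800 against 7154 to 14080 proximally and 56270 to 77180 against 2090 to 7545 distally. The part of these cells in the Arg1, Arg2, Ass1 and Sat1 values was not tested.

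**Figure D2:**
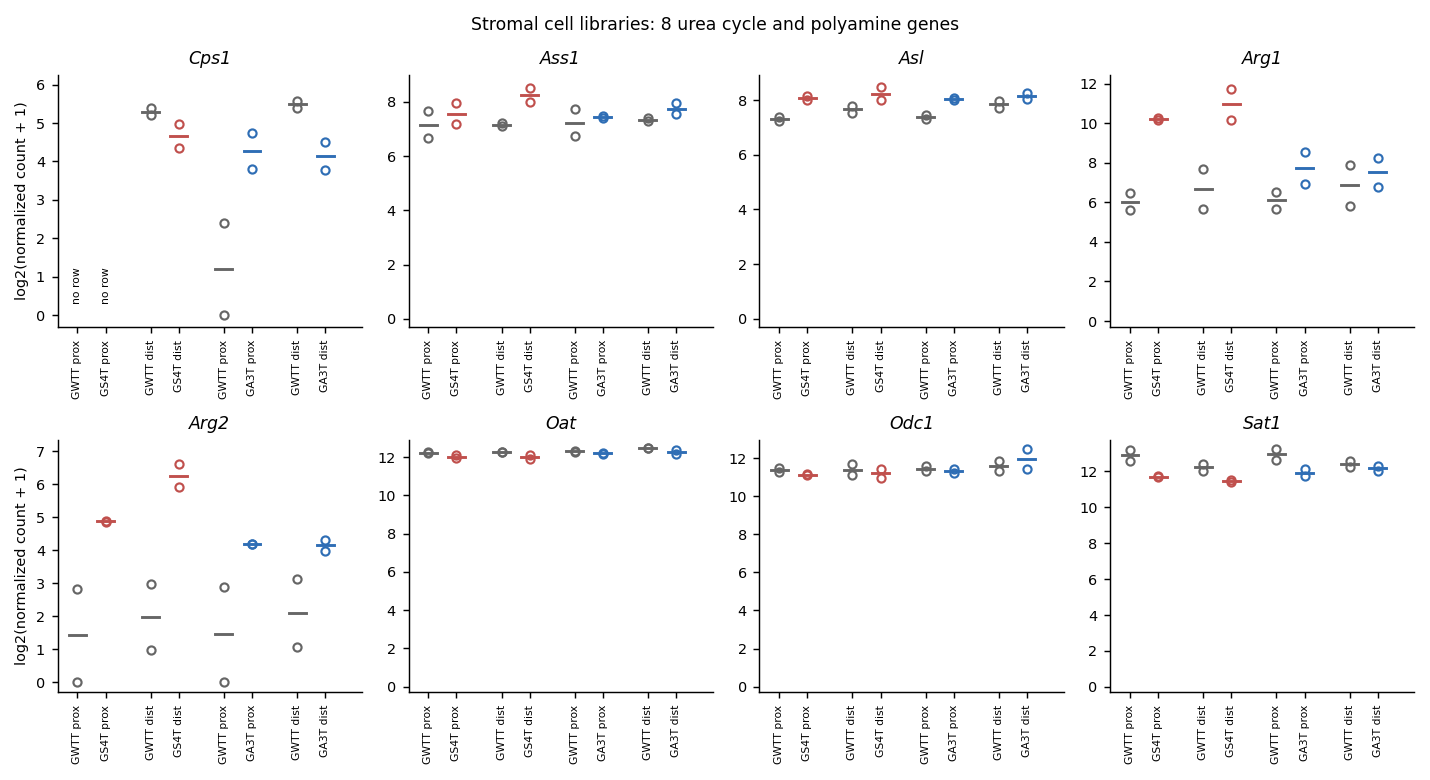
Levels of the 8 members in stromal cell libraries, as log2(normalized count + 1), by group and table. Open circles are libraries, 2 a group, and bars are group means, with GWTT in grey, GS4T in red and GA3T in blue. Arg1 separates GS4T (1128 to 3455 normalized counts) from its controls (47.6 to 208), and no level is drawn where a table has no row for Cps1.

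**Figure D3:**
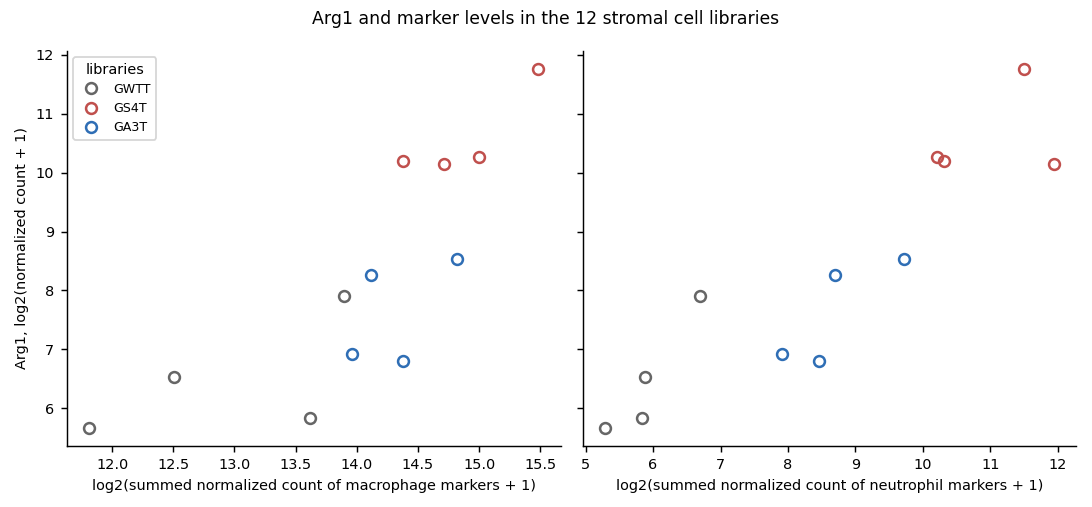
Arg1 against the summed level of macrophage markers (left) and of neutrophil markers (right) in the 12 stromal libraries, all as log2(normalized count + 1), with each control library drawn once, from its Alk3 table. The 4 GS4T libraries (red) lie highest in Arg1 and above all others on the neutrophil axis, and they overlap the 4 GA3T libraries (blue) on the macrophage axis. Controls are grey.

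In stromal cells of the Alk3 knockout no member was called by limma, which called 0.358% of genes proximally and 0% distally. Sat1 was at 9862 and 6452 in proximal GWTT against 4469 and 3401 in GA3T, a difference of -1.03 (SE 0.256, adjusted p = 0.131). DESeq2 called it (adjusted p = 0.00303), beside 6.29% of genes. Among the 2 libraries low in Xist, Sat1 was 9862 in control and 4469 in knockout, and among the 2 high in Xist 6452 and 3401. Each of these is 1 library, and the part of sex was not tested. In distal colon it was at 4815 and 6220 against 5104 and 4221 and the groups overlapped.

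Arg1 was at 50 and 91.6 in proximal GWTT against 120 and 369 in GA3T (1.62, SE 0.628, adjusted p = 0.231) and overlapped distally, at 238 and 56.2 against 110 and 305. Cps1 was low throughout, at 0 and 4.31 against 13 and 25.6 proximally and at 46.9 and 40.8 against 21.8 and 12.8 distally. Its direction was therefore opposite in the 2 segments (3.07 and -1.34), and the difference between them, 4.40 (SE 1.23), had an adjusted p of 0.532. For that difference 0% of genes were called (0 of 15301 by limma, 487 unadjusted and 0 by edgeR). In distal GA3T limma called 0 of 15414 genes, against 1197 unadjusted, 776 by DESeq2 and 0 by edgeR. Macrophage markers summed to 15970 to 28890 in proximal GA3T against 3602 to 5815 in its controls. T and B cell markers, 7 of 8 with a row, summed to 15970 to 16540 against 27770 to 48140 in the controls, neutrophil markers, 6 of 7, to 239.5 to 841.4 against 38.1 to 58.2 with Ly6g at 0 in the controls, and the 7 epithelial markers to 6979 to 10830 against 202.3 to 6925. Their part in the Arg1, Sat1 and Cps1 values was not tested.

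In organoids, cultures of epithelium with no stroma, 12 h of cytokine left the members near their control levels. No member was called with IL1, where 0.0542% of genes were, or with IL-17A, where 0.0385% were. Odc1 was at 4113, 4324 and 5146 in Control against 4324, 5546 and 6043 with IL1, a difference of 0.22 (95% interval -0.15 to 0.59). Sat1 was at 2780, 2826 and 2852 against 2884, 2777 and 2758 with IL1, a difference of -0.01 (-0.21 to 0.20). With IL-17A, Odc1 differed by 0.09 (-0.29 to 0.48) and Sat1 by 0.10 (-0.10 to 0.30). Cps1 was at 151, 117 and 164 in Control against 125, 117 and 76.4 with IL1.

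At 72 h with IL1 the enzymes of polyamine synthesis and breakdown went opposite ways. Odc1 was at 4099, 5253 and 4937 normalized counts in Control against 1581, 2158 and 1166, and it fell by 1.58 (SE 0.23, 95% interval -2.11 to -1.05, adjusted p = 0.0036). Sat1 was at 2679, 2791 and 2736 against 6112, 4255 and 6092, higher by 0.98 (SE 0.17, interval 0.59 to 1.38, adjusted p = 0.00534). Neither pair of groups overlapped. By a chi-square of their reads per degree of freedom, Control-72h_2 and Control-72h_4 were far closer (3.2) than either was to Control-72h_1 (57.4 and 61.7). The test counts them as separate libraries. Control-72h_1 and Control-72h_4 also hold reads labelled 12 h, so cytokine and time cannot be fully told apart here. The Sat1 difference was just under the fold limit by limma and over it by DESeq2 (1.01, adjusted p = 6.25e-06).

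Cps1 was at 111, 118 and 158 in Control against 74.6, 9.96 and 14.3 with IL1 at 72 h. It fell by 2.46 (SE 0.685, adjusted p = 0.0251), without overlap, but one treated library stood near its controls. The call was lost by edgeR (adjusted p = 0.0538) and when any control library, IL1-72h_2 or IL1-72h_3 was left out. Ass1 was at 239, 394 and 404 against 242, 222 and 157 (-0.72, adjusted p = 0.0764), and Asl and Oat differed by -0.29 and -0.22 with overlapping libraries. Arg1 stayed at 7.22 or fewer counts in every library, and Arg2 at 30.1 or fewer. Of the 7 members tested, 2 were called, where limma called 23% of genes and DESeq2 24.5%, so a call was common among all genes.

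With IL-17A at 72 h the values ran the same way but 1 library stood apart. Odc1 was at 4090, 5223 and 4927 in Control against 1680, 3091 and 1063, a difference of -1.42 (SE 0.367) with adjusted p = 0.0516 by limma and 0.00903 by DESeq2. Sat1 was at 2673, 2775 and 2731 against 5290, 2684 and 6546 (0.73, SE 0.317, adjusted p = 0.136). Cps1 was at 111, 117 and 157 against 87.4, 136 and 7.56. In each case IL17A-72h_2 lay nearest the controls, and in Sat1 and Cps1 it lay among them. Without it Odc1 differed by -1.82 (adjusted p = 0.00353) and Sat1 by 1.11 (adjusted p = 0.00378). That library was singled out after seeing the data, and the fit without it called 3577 of 13026 genes. Over all fits with 1 library left out, Odc1 ran from -1.82 to -1.05 and Sat1 from 0.47 to 1.11. No member of 7 tested was called in all libraries by limma, which called 7.94% of genes, and 1 was by DESeq2, which called 17.7%.

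IL1 and IL-17A were thus matched in dose and time, but they share their controls, so their values stand side by side. The change of the IL1 response from 12 h to 72 h was -1.80 for Odc1 (SE 0.298, adjusted p = 0.0058), the 1 member called where 17.4% of genes were. For Sat1 it was 0.99 (SE 0.187, adjusted p = 0.00703), under the fold limit. With the repeated control libraries left out these were -2.08 (adjusted p = 0.111) and 0.94 (adjusted p = 0.158), and neither was called. For IL-17A the change was -1.51 for Odc1 (adjusted p = 0.0848), and 0.0384% of genes and no member were called.

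Other cell classes moved with time and cytokine. Colonocyte markers summed to 30010 to 68980 in Control at 72 h and to 97250 to 222000 with IL1, and goblet cell markers to 109800 to 119500 and 47790 to 183900. Of the 12 macrophage markers, the defining genes Lyz2, Csf1r and Adgre1 had no row in either 72 h table, nor did S100a8 and S100a9 of the neutrophil list. Ly6g, the 1 neutrophil marker with a row, was at 2012 to 2259 in Control and 8180 to 13520 with IL1. Sexes were mixed too. Xist was at 5.32, 24920 and 27660 in the Control libraries at 72 h, at 3.61, 26230 and 8.78 with IL1 and at 5.04 or fewer in all IL-17A libraries. Sat1 was at 6112 and 6092 in the 2 IL1 libraries low in Xist and at 4255 in the high one, against 2679 in the low control and 2791 and 2736 in the high ones. The part of sex and of the cell classes in the Odc1, Sat1 and Cps1 values was not tested.

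**Figure D4:**
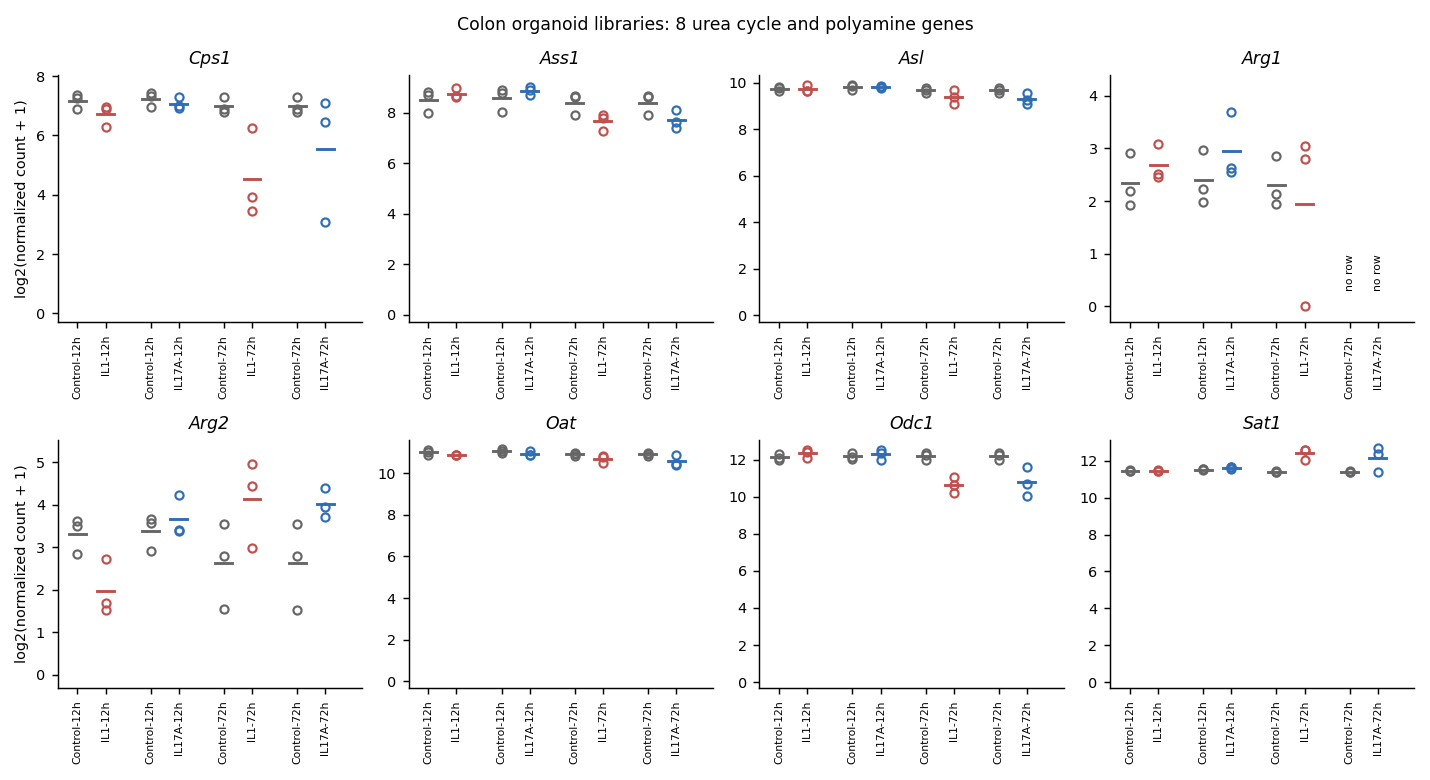
Levels of the 8 members in organoid libraries, as log2(normalized count + 1), by group and table. Open circles are libraries, 3 a group, and bars are group means, with Control in grey, IL1 in red and IL17A in blue. Odc1 is low and Sat1 high in the 72 h IL1 libraries (1166 to 2158 and 4255 to 6112 normalized counts), and both are near control at 12 h.

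The rest of the pathway was followed in 6 lists of 50 genes, of which 41 to 44 passed the filter on low values in each comparison. In GS4T against GWTT, 4 of 44 were called proximally and 11 of 43 distally, beside 9.61% and 14% of all genes. Nos2, the inducible nitric oxide synthase that uses arginine, was at 6.20 and 1.03 in proximal GWTT against 85.8 and 54.8 (4.19, adjusted p = 0.0312) and at 0 and 4.84 against 197 and 174 distally (6.27, adjusted p = 0.0078). Smox, the spermine oxidase, rose by 1.59 and 2.45. Slc25a13, which brings aspartate out of mitochondria for Ass1, rose by 2.19 and 1.30. Glul, glutamine synthetase, fell by 1.38 in proximal colon. In distal colon Got1, Azin2, Atp13a3, Slc25a29 and the arginine carriers Slc7a2, Slc7a6 and Slc7a7 rose and Pycr1, of proline synthesis, fell. General epithelial markers were higher in the same GS4T libraries, by a median of 3.77 and 3.33, as were macrophage and neutrophil markers. Slc25a13 was also higher in control goblet than in control stromal cells. The part of other cells in the list gene values was not tested.

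Smox was also the 1 list gene of 44 called in proximal GA3T (348.6 ± 13.1 against 1376 ± 262, 1.97, adjusted p = 0.0489). Markers of other cells moved there too, and their part in the Smox values was not tested. No list gene was called in goblet cells of either knockout, in distal GA3T, at 12 h in organoids, or between segments.

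In organoids with IL1 at 72 h, 13 of 43 list genes were called, beside 23% of all genes, and 11 of 43 for the change of the IL1 response with time, beside 17.4%. In the list of polyamine synthesis and its control, 4 of 9 fell and 1 rose, again beside 23% called in either direction, with a median difference of -0.17 beside -0.000856 over all genes. The 4 were Amd1 (-1.27) and the spermidine and spermine synthases Srm (-1.80) and Sms (-1.05), with Mtap (-1.57), which recycles the by-product, and Azin2, an antizyme inhibitor, rose by 2.74. Otc, which joins carbamoyl phosphate to ornithine, was at 80.7, 152 and 184 against 13.2, 15 and 6.58 and fell by 3.47 (adjusted p = 0.00316). Slc25a15, the mitochondrial ornithine carrier, fell by 1.02 and Nags, which makes the activator of Cps1, rose by 3.23 (12.8 ± 12 to 113.7 ± 59.1). Nos2 was at 71, 362 and 405 against 5624, 4927 and 2188 and rose by 4.16 (adjusted p = 0.00439).

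With IL-17A at 72 h, 3 of 44 list genes were called, beside 7.94% of all genes. Those 1038 calls depended on single libraries. Limma called 2 genes with Control-72h_2 and Control-72h_4 averaged, 4 without the first and 3 without the second. It called 3 without IL17A-72h_1 and 3577 without IL17A-72h_2. In the fit with every library, Otc fell by 2.75, and Nos2 rose by 4.62 and Smox by 1.11. Between control goblet and stromal cells 20 of 41 list genes were called, beside 44.3% of all genes, with Slc25a13 (4.22), Slc25a15 (1.26) and Amd1 (1.15) higher in goblet cells and Azin2 (-5.99) and Sat2 (-3.27) lower.

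**Figure D5:**
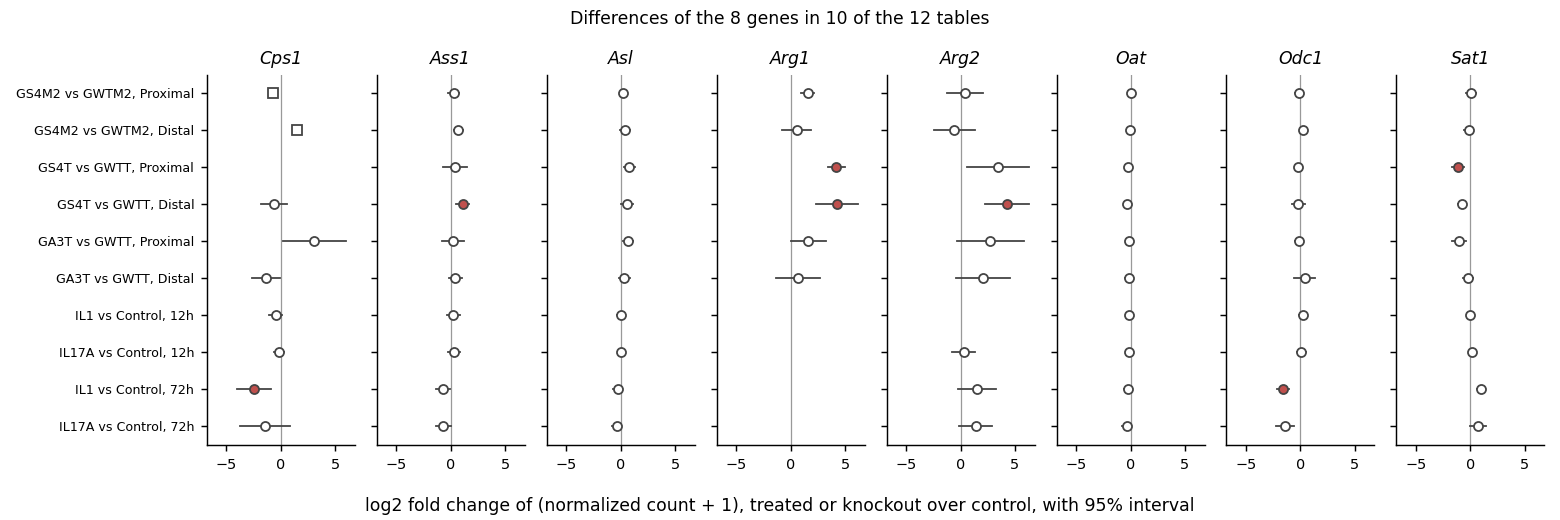
Log2 differences from control of the 8 members in the 10 comparisons that did not choose the group, with 95% intervals from limma. Filled red points were called, squares without intervals are Cps1 values given as a description only, and the other points were not called. The called points are Arg1, Arg2, Ass1 and Sat1 in GS4T stromal cells and Odc1 and Cps1 in organoids given IL1 for 72 h.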

How the data were processed

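RNA-seq of 42 labelled libraries (24 sorted, 18 organoid) is given in 12 tables. Per the labels and the study's methods, the authors mapped reads to mm10 with STAR 2.5.3 and divided gene counts by DESeq2 (1.28.1) size factors within each table. The deposited values are this normalized signal. The counting program, annotation and strand setting are not given in the sources used here. Each column is whole multiples of 1 step (100% came out whole with a tolerance of 0.1), and reads were recovered to give CPM and RPKM (GENCODE M21 exon lengths). Rows without a gene name, up to 28.22% of a library's signal in the Smad4 goblet cell tables, were left out.

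Each table was tested by limma 3.58.1 with trend on log2(value + 1), keeping genes whose mean value reached 10. Calls needed a Benjamini-Hochberg adjusted p under 0.05 over all genes tested and a log2 difference of at least 1 in size. Segment and cell type comparisons used log2(CPM + 0.1) keeping genes whose mean CPM reached 0.5, and differences between segments or times were tested as interactions. In all, 21 comparisons were fitted. The ± values are SDs. DESeq2 1.42.0, edgeR 4.0.16 (both on recovered reads), other pseudocounts, filters and scalings, a replicate block and leaving out each library were alternatives. The fit was tested on simulated data. With 2 or 3 libraries a group the p-values measure only the spread between these libraries, which may be technical. The members and all lists were chosen with earlier results of these data known, and the text names all 8 members, examples of the list genes called and, for Cps1, the 5 genes with the most similar pattern. In the proximal Smad4 goblet cell table the column names were used for the groups, since its GWTM2 reads equal those in the Alk3 table, while a heading of the study gives them the other way round. The labels name the tissue intestinal epithelium for stromal cells too, which held Col1a1 at 6968 ± 1240 CPM against 0.0834 in goblet cells.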

Additional observations from a re-analysis of the deposited data

Results flagged for a closer look

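For 2 members the response to IL1 differed between 12 h and 72 h by a test of the difference itself. For Odc1 the change was -1.80 (limma adjusted p = 0.0058) and for Sat1 0.99 (adjusted p = 0.00703), the second under the fold limit and so not called, both on the log2(normalized count + 1) scale. This fit counts 2 control libraries at both times. With them left out the changes were -2.08 (adjusted p = 0.111) and 0.94 (adjusted p = 0.158), and neither was called.

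Cps1 moved in opposite directions in proximal and distal colon in 2 comparisons. In goblet cells of the Smad4 knockout both proximal libraries were below and both distal libraries above their controls, with a difference between segments of -2.26 that was not tested, since the gene was chosen on these controls. In stromal cells of the Alk3 knockout the difference was 4.40, with both proximal libraries above and both distal libraries below their controls, and limma gave it an adjusted p of 0.532 at 46.9 normalized counts or fewer.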

How the results depend on the processing

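Of 1709 values of single members under the alternatives, 1617 kept their direction and their side of the threshold. Counts of members called are given below where an alternative moved them by over 1.5 times or from 0. GA3M2, which chose the group, is left out. Distal GS4M2 and the GS4M2 interaction are left out too, since a call there could be of Cps1. Nothing is read from a call of Cps1 in the goblet cell counts that remain. DESeq2 called 1 member in place of 0 in proximal GS4M2, proximal GA3T, IL-17A at 72 h and both segment comparisons. Of all genes it called 2.04%, 6.29% and 17.7% there, in that order, with 2.96% (GWTM2) and 4.2% (GWTT) between segments. Without adjustment of p the counts were 1 in proximal GS4M2 (567 of 13246 genes called), distal GA3T (1197 of 15414) and IL-17A at 72 h (2688 of 13073). They were 1 also between segments (710 of 13292 in GWTM2, 961 of 15234 in GWTT). In the interactions of GA3T (487 of 15301) and IL-17A (2063 of 13022) they were 1 too. They were 2 in the interaction of IL1 (2923 of 12955) and 3 in proximal GA3T (1451 of 15346). In IL-17A at 72 h a pseudocount of 10 gave 1 (1155 of 13073 genes). For IL1 at 72 h edgeR gave 1 in place of 2 (2971 of 13023 genes). For the interaction of IL1 and time, no filter (2210 of 14556 genes) or edgeR (2233 of 12955) gave 2 in place of 1. Leaving out the repeated control libraries, chosen after seeing the data, gave 0 (0 of 12967 genes). The close pairs IL17A-12h_3 and IL17A-12h_4, IL1-12h_3 and IL1-12h_4, and Control-72h_2 and Control-72h_4 were also averaged, a choice made after seeing the data. Averaging gave 1 for IL1 at 72 h (2196 of 13040 genes). A fit of the segments over all 12 goblet libraries with genotype as a term takes in GA3M2, and its count is not given. The plan was to average libraries of a group that agree within sampling noise, taken as a chi-square per degree of freedom of 1.1 or less. No pair met this, so the fit reported enters every library separately.

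With the replicate number as a block, the counts were 1 in proximal GS4M2 (in place of 0), 1 in IL1 at 72 h (of 2, Cps1 with adjusted p = 0.111) and 1 between goblet segments (of 0). Of all genes the block called 260 of 13246, 1513 of 13023 and 542 of 13292 there, in that order. The labels tie same-numbered libraries by number only. Their deviations correlated at 0.619 to 0.637 at 12 h, over 2 pairs a table, where the block called 100 genes in place of 7 with IL1 and 120 in place of 5 with IL-17A, with 0 members among them, and at -0.186 to 0.302 elsewhere. The block also turned Asl and Sat1 with IL1 at 12 h to 0.054 and 0.0022, Asl with IL-17A at 12 h to 0.011 and Cps1 in the IL-17A interaction to 0.21.

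Leaving out 1 library, the counts ran from 0 to 2 in IL-17A at 72 h and from 1 to 2 in IL1 at 72 h. Over all genes the calls ran from 3 to 3577 with IL-17A and from 2078 to 3396 with IL1. In the sorted cells this leaves 1 library in a group, and only differences are given here. Small differences turned direction. In proximal GS4M2 they ran from -0.19 to 0.33 for Sat1, from -0.047 to 0.16 for Oat and from -0.53 to 1.31 for Arg2, and in distal GS4M2 from -0.34 to 0.0078 for Sat1, from -0.032 to 1.13 for Arg1 and from -0.12 to 0.087 for Oat. In stromal cells they ran from -0.10 to 0.90 for Ass1 (proximal GS4T), from -0.48 to 0.076 for Odc1 (distal GS4T), from -0.28 to 0.72 for Ass1 (proximal GA3T), and from -0.15 to 0.90 for Odc1 and -0.37 to 1.69 for Arg1 (distal GA3T). At 12 h they ran from -0.015 to 0.41 for Ass1, -0.10 to 0.040 for Asl and -0.027 to 0.0056 for Sat1 with IL1, and from -0.058 to 0.041 for Asl and -0.018 to 0.24 for Odc1 with IL-17A. Between segments they ran from -0.090 to 0.21 for Asl in GWTM2 and, in GWTT, from -1.70 to 0.33 for Arg1, -0.35 to 0.22 for Odc1 and -0.55 to 0.48 for Ass1.

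Other turns were Asl and Sat1 with IL1 (0.033 and 0.0031) and Asl with IL-17A (0.011) at 12 h with close pairs averaged, Asl and Odc1 between goblet segments over all 12 libraries (-0.10 for each), Ass1 between stromal segments by edgeR and DESeq2 (0.069 and 0.074), and Arg2 in the GS4T interaction with a pseudocount of 0.1 (0.37). The cause of these changes was not tested. Low reads limit Cps1 and Arg2 in stromal cells and Arg1 and Arg2 in organoids.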
